A study of Danio rerio with 16 samples.

Results

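Membrane ruffles are sheets of plasma membrane that cells raise by pushing on them with newly built actin filaments, and they depend on the small GTPase Rac. In mammals, proteins of the Eps8 family cap or bundle actin filaments, and together with the adaptor Abi1 and the exchange factor Sos1 they activate Rac. The products of *eps8l1a* and *eps8l1b* are zebrafish members of this family, and *aif1l* encodes a small protein whose mammalian counterpart bundles actin. The 3 genes *eps8l1a* (ENSDARG00000057984), *eps8l1b* (ENSDARG00000003313) and *aif1l* (ENSDARG00000009336) were taken by name, with their Ensembl identifiers from the study's tables, out of 32520 genes in the count table.

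The gonads of 16 zebrafish of the AB strain, 4 months old, were compared. Males (testis) and females (ovary) had been kept for 32 days in water with 0 (controls), 50, 100 or 200 μg/L of exemestane (EM), an inhibitor of the estrogen-making enzyme aromatase. The 8 groups of sex and concentration held 2 fish each, so that there were 6 EM-males, 2 control males, 6 EM-females and 2 control females. EM was dissolved in DMSO, and the fish at 0 μg/L were taken here as solvent controls because the study compares its adults with these. Each tank held 3 males and 3 females under a single treatment, so tank and treatment cannot be told apart. The p-values below measure the spread between single fish.

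Each library held 4043394 to 13821205 reads on genes, and values are given as normalized counts, that is, counts divided by a size factor for the depth of the library. Sex markers fitted the labels: 11 oocyte genes summed to 393 to 716 normalized counts in males and to 70910 to 92136 in females. Most testis libraries also held RNA typical of gut. The sum of 10 gut and kidney brush border markers (of 12 looked for) ran from 602 to 85634 in EM-males and was 87926 and 22660 in the control males, against 62.9 to 241 in all females. It was near 600 in only 2 male libraries, replicate 1 at 50 μg/L (604) and replicate 1 at 100 μg/L (602). In these 2 libraries *fabp6*, the bile acid-binding protein of the ileum, had 7.63 and 2.56 normalized counts, against 67974 and 15654 in the control males. RNA of other tissues varied as well: 15 liver markers summed to 1786 to 38080 in EM-males and to 31184 and 3306 in control males, and 11 leukocyte markers, of which *lyz* was listed at 0 in every library, to 1252 to 15353 in EM-males and to 14409 and 6446 in control males. In females these sums were at most 1733 and 82.1. Because these are bulk samples, fewer cells of a type and less RNA per cell cannot be told apart in any result below. Levels are compared between groups for each gene and not between genes, since the values are not per length.

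In testis *eps8l1b* was low in the control males and higher in every EM-male. The 2 fish had 42.8 and 97.0 normalized counts at 0 μg/L, and with EM 287 and 469 (50 μg/L), 238 and 1050 (100 μg/L), and 1037 and 383 (200 μg/L). The lowest EM-male, replicate 1 at 100 μg/L, lay above both control males, so the pooled groups did not overlap. The mean was 577 ± 370 in EM-males (SD, n = 6) and 69.9 ± 38.4 in control males (SD, n = 2), a ratio of 8.26.

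The difference in testis did not pass the test across all genes. The log2 fold change of *eps8l1b* was 2.99 (SE 0.78), with an unadjusted p of 0.00369 and an adjusted p of 0.682 in edgeR's quasi-likelihood test. With DESeq2 the log2 fold change was 2.98 and the adjusted p 0.0122. Over 18 alternatives the log2 fold change lay between 2.33 and 3.77, and the adjusted p between 0.0122 and 1.00. Leaving out control male replicate 1 gave 2.51, and leaving out control male replicate 2 gave 3.77. An exact two-sided permutation test of the mean normalized counts gave p = 0.0714, and p = 0.0357, the smallest that 6 fish against 2 allow, on log2 values. The choice of these genes followed earlier results on the same fish, so this direction is not independent evidence.

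Levels of *eps8l1b* were set beside the gut marker sums of the males. The 2 libraries with a gut marker sum near 600 had 287 and 238 normalized counts, the lowest of the EM-males. Control male replicate 1, with the largest gut marker sum of the 16 libraries, had the least *eps8l1b* of the males. Without the 3 male libraries with the most gut RNA, which include control male replicate 1, the log2 fold change was 2.69 (edgeR). That fit had control male replicate 2 as its only control, with a gut marker sum of 22660, above every EM-male kept. Gut RNA thus remained unequal between its groups. With the gut markers as a covariate the log2 fold change was 3.29 (adjusted p = 0.701, edgeR). Another difference ran along the same groups: 9 markers of testis somatic cells summed to 10848 to 18646 normalized counts in EM-males, against 31633 and 23475 in control males. Among them *insl3*, a hormone of Leydig cells, had 2036 to 5114 in EM-males and 13230 and 11037 in control males, a large part of these sums. Without *insl3* the sums of EM-males and control males overlapped. edgeR called 0 of the 9 markers between these groups. The share of all genes with every EM-male below both control males was not counted. Testis germ cell markers summed to 26109 to 48196 in EM-males and to 23411 and 44799 in control males, so these sums overlapped. The part of gut RNA or of the somatic or germ cell markers in the *eps8l1b* difference was not tested.

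**Figure D1:**
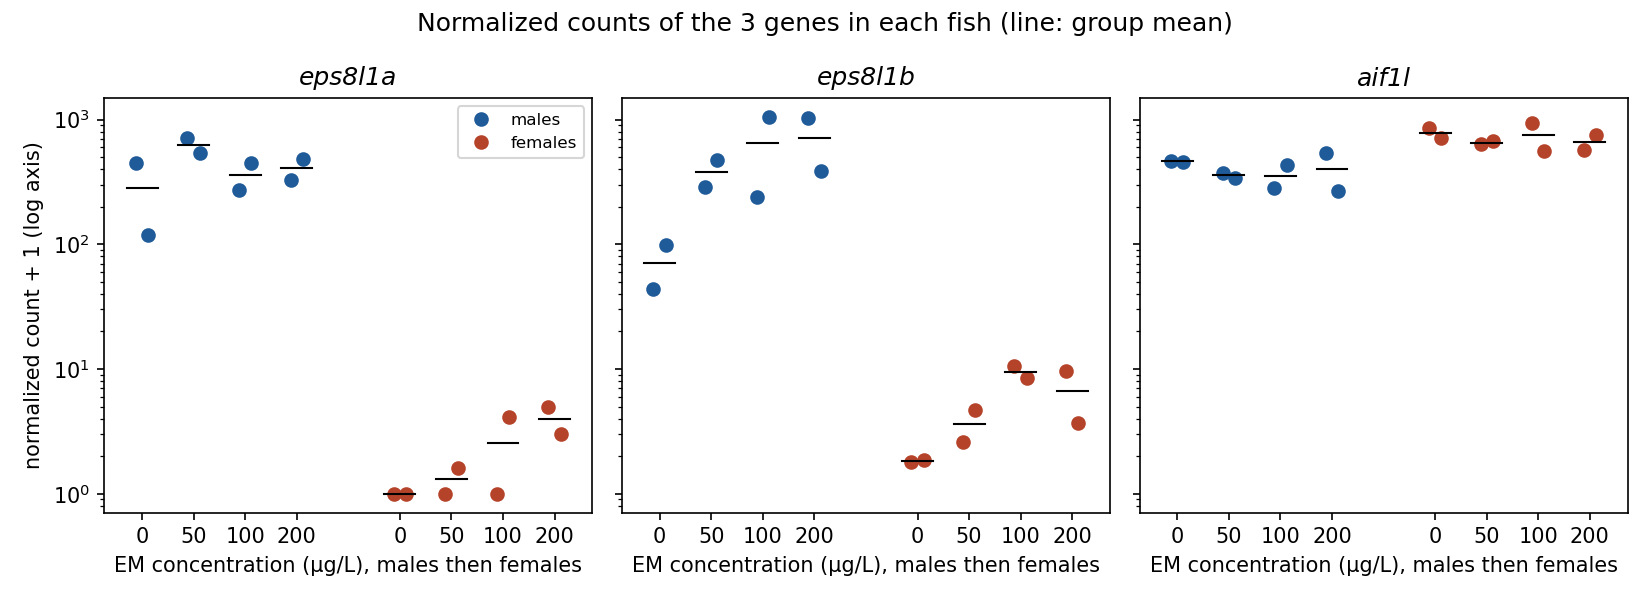
Normalized count plus 1 (log axis) of *eps8l1a*, *eps8l1b* and *aif1l* against EM concentration in μg/L, with blue points for single males, red points for single females and black lines for the mean of each group of 2 fish. In males *eps8l1b* was 42.8 and 97.0 at 0 μg/L and at least 238 with EM, and females had under 10 normalized counts of both *eps8* genes.

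In testis *eps8l1a*, the other copy of Eps8-like 1, did not separate EM-males and control males. It had 449 and 118 normalized counts at 0 μg/L, and with EM 704 and 538 (50 μg/L), 272 and 448 (100 μg/L), and 328 and 481 (200 μg/L). Control male replicate 2 was the lowest male, while control male replicate 1 lay among the EM-males, of which 3 of 6 were above both control males. The mean was 462 ± 154 in EM-males (SD, n = 6) and 283 ± 234 in control males (SD, n = 2). EM-males over control males gave a log2 fold change of 0.71 (SE 0.53, adjusted p = 0.890, edgeR), and the exact permutation p was 0.286.

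The *eps8l1a* difference rested on which control male was used. Without control male replicate 1 the log2 fold change was 1.92 (adjusted p = 0.882, edgeR), and without control male replicate 2 it was 0.06 (adjusted p = 0.977, edgeR). Without the 3 libraries with the most gut RNA, which include control male replicate 1, it was 1.84 (edgeR). That fit kept only control male replicate 2 as a control, with more gut RNA than any EM-male kept. The 2 libraries with little gut RNA had 704 and 272 normalized counts, the highest and the lowest EM-male.

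In testis *aif1l* lay between 266 and 534 normalized counts in the 8 males. It had 465 and 456 normalized counts at 0 μg/L, and with EM 374 and 339 (50 μg/L), 281 and 427 (100 μg/L), and 534 and 266 (200 μg/L). Of the EM-males 5 of 6 were below both control males, and replicate 1 at 200 μg/L was above them. The mean was 370 ± 99.8 in EM-males (SD, n = 6) and 461 ± 6.54 in control males (SD, n = 2). On the log2 scale the fold change was −0.33 (SE 0.32, adjusted p = 0.930, edgeR), and the exact permutation p was 0.286.

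Thus 0 of the 3 genes were called between EM-males and control males by edgeR, where 1 of 19417 genes tested (0.00515%) was called. At an unadjusted p under 0.05 there were 1188 such genes, and of the 3 genes only *eps8l1b* was among them. DESeq2 called 126 genes (0.45%), which again included *eps8l1b* and neither of the others. All 6 EM-males were above both control males for *eps8l1b*, as for 5.4% of all genes tested.

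In ovary both *eps8* genes were near the floor of detection. *eps8l1b* had 1 read in each control female, and with EM 3 and 6 reads (50 μg/L), 16 and 12 (100 μg/L), and 11 and 4 (200 μg/L). As normalized counts these were 0.797 and 0.850 at 0 μg/L, 1.59 and 3.71 at 50 μg/L, 9.58 and 7.46 at 100 μg/L, and 8.69 and 2.66 at 200 μg/L. All 6 EM-females lay above both control females, as for 9.13% of all genes tested. With 1 read in each control female, *eps8l1b* was among the genes tested only through its reads in EM-females.

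On summed reads *eps8l1b* had 52 in EM-females and 2 in control females, a ratio of 6.62 after scaling for depth (95% exact interval 1.74 to 56.1, counting error only). The log2 fold change was 2.62 (SE 1.02), with an unadjusted p of 0.0302 and an adjusted p of 0.370 in edgeR. Since *eps8l1b* passed the filter of this fit only through EM-females, its direction was fixed by that filter. The exact permutation test gave p = 0.143 on normalized counts and p = 0.0357 on log2 values. The difference therefore did not pass the test across all genes.

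*eps8l1a* was read 0 times in both control females, and with EM 0 and 1 times (50 μg/L), 0 and 5 times (100 μg/L), and 5 and 3 times (200 μg/L). It was too low for the filter and so was not in the main edgeR fits within ovary. In the alternatives that kept it, it was not called between EM-females and control females (adjusted p = 0.651 with no filter and 0.937 in the model of all libraries, edgeR) or along the concentration (adjusted p = 0.971 with no filter, edgeR). The exact permutation p between EM-females and control females was 0.321. The 14 reads in EM-females against 0 in control females gave a ratio whose 95% exact interval began at 0.844, so that a difference was not detectable at this depth. A count of 0 allows up to 3 reads per library.

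*aif1l* was expressed in every ovary. It had 847 and 709 normalized counts at 0 μg/L, and with EM 630 and 673 (50 μg/L), 937 and 557 (100 μg/L), and 572 and 747 (200 μg/L). Of the EM-females 4 of 6 were below both control females, so the groups overlapped. The mean was 686 ± 141 in EM-females (SD, n = 6) and 778 ± 97.4 in control females (SD, n = 2). On the log2 scale the fold change was −0.21 (SE 0.20, adjusted p = 0.740, edgeR), and the exact permutation p was 0.464. The difference was smaller than the spread among the EM-females.

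Of the 3 genes, 0 were called by edgeR between EM-females and control females, where 2 of 15907 genes tested (0.0126%) were called. At an unadjusted p under 0.05 there were 1867 genes, and DESeq2 called 391 (1.55%). DESeq2 did not call *aif1l* (adjusted p = 0.774) and gave no adjusted p for *eps8l1a* and *eps8l1b*, which were under its own filter on low counts.

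The clearest separation of these genes was between testis and ovary. In the exposed fish *eps8l1a* had 272 to 704 normalized counts in EM-males, with a median of 465, and 0 to 3.95 in EM-females, with a median of 1.31. *eps8l1b* had 238 to 1050 in EM-males, with a median of 426, and 1.59 to 9.58 in EM-females, with a median of 5.59. The sexes did not overlap for either gene. The share of all genes whose sexes did not overlap was not counted, here or for *aif1l* below. Over EM-females, EM-males had a log2 fold change of 8.05 for *eps8l1a* (SE 0.68, adjusted p = 5.09e-07, edgeR). It was 6.62 for *eps8l1b* (SE 0.52, adjusted p = 3.03e-07, edgeR).

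*aif1l* ran the other way, with 266 to 534 normalized counts in EM-males (median 356) and 557 to 937 in EM-females (median 652). Every EM-male was below every EM-female, and the ratio of means was 0.540. The log2 fold change was −1.01 (SE 0.21, adjusted p = 0.000821, edgeR).

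All 3 genes were thus called between EM-males and EM-females, 2 higher and 1 lower in males, where 75.7% of 17253 genes tested were called (40.9% higher and 34.8% lower). Most genes of the gonad were thus called here, the 3 genes among them. EM-females held 0 to 5 reads of *eps8l1a* and 3 to 16 of *eps8l1b*. Since both genes passed the filter only through their testis reads, their direction was fixed by that filter. Without the 4 EM-males with a gut marker sum over 1000, the log2 fold change was 8.69 for *eps8l1a*, 5.56 for *eps8l1b* and −1.32 for *aif1l*, each with an adjusted p of at most 0.00390 in edgeR. In that fit too *eps8l1a* passed the filter only through testis, so its direction could not have come out otherwise.

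Control males and control females differed in the same directions. Each control female held 0 reads of *eps8l1a* and 1 of *eps8l1b*. Both genes thus passed the filter only through their testis reads, and their direction was fixed by that filter. *eps8l1a* had 449 and 118 normalized counts in control males and 0 in both control females (adjusted p = 0.0116, edgeR). Against a floor of 3 counts per library, the mean of the control males was at least 115-fold higher, and the 2 males differed widely. *eps8l1b* had 42.8 and 97.0 in control males and 0.797 and 0.850 in control females. The summed reads of *eps8l1b* gave a ratio of 104 (95% exact interval 28.4 to 870, counting error only), with an adjusted p of 0.0128 in edgeR.

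*aif1l* had 465 and 456 normalized counts in control males and 847 and 709 in control females, without overlap. The log2 fold change was −0.91 (SE 0.32, adjusted p = 0.0638, edgeR), which did not pass the test. It passed when 1 edgeR model held all 16 libraries (−1.10, adjusted p = 0.0308) and without control male replicate 2 (−0.97, adjusted p = 0.0441, edgeR). Between control males and control females 2 of the 3 genes were called, where 46% of 18494 genes tested were called (29.5% higher and 16.5% lower in males).

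**Figure D2:**
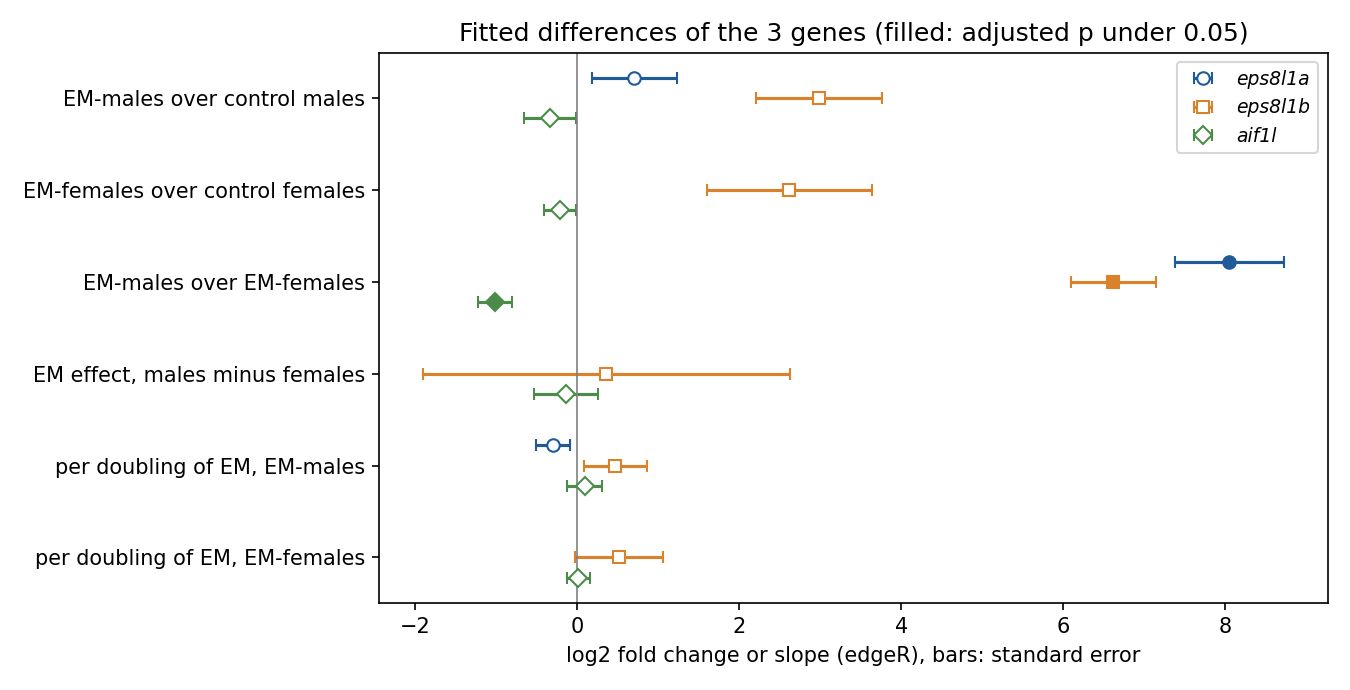
Log2 fold change, or log2 slope per doubling of EM, from edgeR for *eps8l1a* (circles), *eps8l1b* (squares) and *aif1l* (diamonds), with filled symbols where the adjusted p was under 0.05. Bars are standard errors derived from the log2 value and the F statistic of its test. Of the comparisons drawn, which leave out control males over control females, only the 3 values of EM-males over EM-females were filled (8.05, 6.62 and −1.01). *eps8l1a* is not drawn within ovary or for the EM effect compared between the sexes. Its value of 8.05 is drawn, although EM-females had only 0 to 5 reads.

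The EM effect was then compared between the sexes. For *eps8l1b* the log2 effect in males minus that in females was 0.36 (SE 2.27, adjusted p = 1.00, edgeR), and for *aif1l* it was −0.14 (SE 0.39, adjusted p = 0.987, edgeR). For *eps8l1a* the control females held 0 reads, so no size is given, and the adjusted p was 0.765 (edgeR). edgeR called 0 of the 3 genes and 0 of 22106 genes tested (0%), with 1680 genes at an unadjusted p under 0.05, and DESeq2 called 111 (0.391%). The standard error of *eps8l1b* was larger than its value, so that neither a like nor an unlike effect in the sexes was shown.

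Within the exposed fish the slope of none of the 3 genes on concentration passed the test. In EM-males the log2 slope per doubling of EM was 0.47 for *eps8l1b* (SE 0.39, adjusted p = 0.904, edgeR), −0.30 for *eps8l1a* (SE 0.21, adjusted p = 0.904, edgeR) and 0.10 for *aif1l* (SE 0.22, adjusted p = 0.964, edgeR). The mean of *eps8l1b* was 378 ± 128 normalized counts with 50 μg/L, 644 ± 574 with 100 and 710 ± 462 with 200 (SD, n = 2 each), and the 2 fish at 100 μg/L were the lowest and the highest of the EM-males. In EM-females the slope was 0.52 for *eps8l1b* (SE 0.54, adjusted p = 1.00, edgeR) and 0.02 for *aif1l* (SE 0.14, adjusted p = 1.00, edgeR). edgeR called 0 of 18818 genes in EM-males (0%) and 0 of 15650 in EM-females (0%), against 858 and 677 at an unadjusted p under 0.05 and 67 (0.242%) and 109 (0.44%) with DESeq2.

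By group mean, the order of *eps8l1b* was testis at 200, 100 and 50 μg/L, testis at 0 μg/L, ovary at 100, 200 and 50 μg/L, and ovary at 0 μg/L. Neighbouring groups in this order overlapped, except between testis with and without EM, between testis and ovary, and between ovary with and without EM. For *eps8l1a* the order in testis was 50, 200, 100 and 0 μg/L, followed by ovary at 200, 100, 50 and 0 μg/L. Here the 2 fish at 50 μg/L lay above the 2 at 200 μg/L, and testis lay above ovary, while the other neighbours overlapped or met at 0. For *aif1l* the order was ovary at 0, 100, 200 and 50 μg/L, then testis at 0, 200, 50 and 100 μg/L, and only ovary and testis did not overlap. These neighbours, with 2 fish in each group, were compared by their ranges only.

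Other genes of the family were followed to see whether *eps8l1a* and *eps8l1b* stood apart. Of 7 family genes looked for, 6 had an identifier, and *eps8b* had at most 1 read in any library. *eps8l3a* had 169 to 5110 normalized counts in EM-males, 2192 and 491 in control males, 2.37 to 13.1 in EM-females and 19.1 and 14.4 in control females. *eps8l3b* had 94.1 to 4213 in EM-males, 2762 and 875 in control males, 0.665 to 4.74 in EM-females and 11.2 and 3.40 in control females. *eps8l2*, whose mammalian counterpart maintains the stereocilia of hair cells, had 15.4 to 415 in EM-males, 265 and 65.8 in control males, 11.1 to 31.6 in EM-females and 3.19 and 34.8 in control females. These 3 genes were highest in replicate 2 at 200 μg/L among the males, the EM-male with the largest gut marker sum, and lowest in the 2 EM-males with the smallest.

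The genes *eps8l1a* and *eps8l1b* did not follow that order among the 8 testis libraries. *eps8l3a* had 310 and 169 normalized counts in the libraries with gut marker sums of 604 and 602, and 5110 and 2192 in those with 85634 and 87926. At the same 4 libraries *eps8l1a* had 704 and 272, and 481 and 449. *eps8l1b* had 287 and 238 in the first 2, and 383 and 42.8 in the others. The gut markers thus moved with *eps8l2*, *eps8l3a* and *eps8l3b* across these libraries, and their part in those levels was not tested. Between EM-males and control males, *eps8l3b* had a log2 fold change of −0.66 (SE 1.19, adjusted p = 0.968, edgeR), and for *eps8l3a* it was 0.08 (SE 1.15, adjusted p = 0.998, edgeR).

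**Figure D3:**
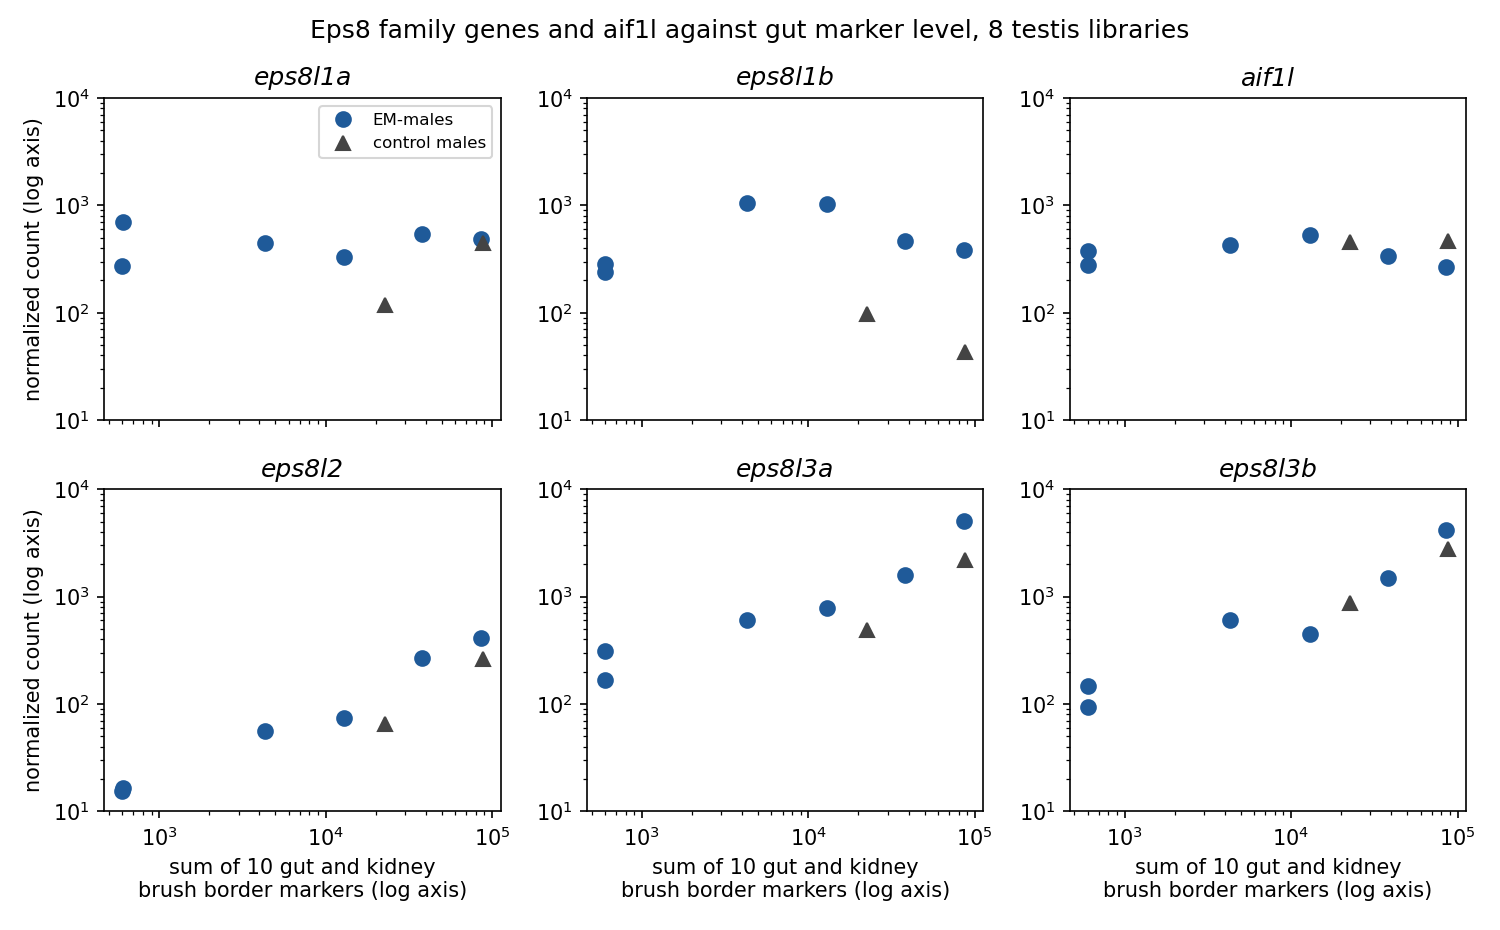
Normalized count (log axis) of *eps8l1a*, *eps8l1b*, *aif1l*, *eps8l2*, *eps8l3a* and *eps8l3b* in single testis libraries against the summed normalized counts of 10 gut and kidney brush border markers (log axis), with circles for the 6 EM-males and triangles for the 2 control males. The points of *eps8l3b* are at 94.1 and 146 where the sum is 604 and 602, and at 4213 and 2762 where it is 85634 and 87926, while those of *eps8l1b* show no such order, and its control males (42.8 and 97.0) lie below all EM-males.

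Genes that act with these proteins were counted from lists of the Eps8 and Aif1 families, Eps8 partners, the Rac and Arf6 switch, the WAVE complex that Rac turns on, the Arp2/3 complex that branches actin, and actin bundling and capping. The bundling and capping list also held cofilins, profilins and a moesin, which are not bundling or capping proteins. Of 111 symbols 72 had an identifier. Between EM-males and control males, edgeR called 0 of the 66 that were tested, and DESeq2 called 1, *eps8l1b*. In edgeR 4 of the 66 had an unadjusted p under 0.05, against 1188 of all 19417 genes tested. Log2 fold changes were positive for 20 of the 66, against 51.1% of all genes tested. Their median was −0.19, against 0.02 over all genes tested. The Arp2/3 complex had 7 of 9 negative values with a median of −0.47, and the bundling and capping list had 15 of 17 with a median of −0.60. In these 2 lists the summed level was 3734 to 6935 and 8262 to 39790 normalized counts in EM-males, against 8529 and 5552, and 30868 and 13865, in the control males. Cofilins and profilins made up much of the sum of the bundling and capping list. The largest sum of the bundling list stood in replicate 2 at 200 μg/L, where *vil1*, the villin of gut microvilli and a gene of both this list and the gut list, had 10969.

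In ovary edgeR called 0 of 61 tested genes of these lists between EM-females and control females, and DESeq2 called 0 as well. Before adjustment 12 of the 61 were under 0.05 in edgeR, against 1867 of all 15907 genes tested. Of these 61, 36 had a positive log2 fold change, against 51.0% of all genes tested, and the median was 0.08 against 0.01. The interaction and both concentration trends called 0 of 70, 66 and 61 genes of the lists in edgeR, with 8, 1 and 1 at an unadjusted p under 0.05. Over all genes tested these were 1680 of 22106, 858 of 18818 and 677 of 15650. DESeq2 called 1 of them in the interaction, *arpc3* of the Arp2/3 complex, and 0 in either trend.

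Between EM-males and EM-females 29 of 67 genes of the lists were higher and 24 lower in males, against 40.9% higher and 34.8% lower over all genes tested, so that the lists were near the background. All 5 tested *eps8* genes were among the higher ones, with a median log2 fold change of 7.38, against 0.18 over all genes tested. Of these only *eps8l2* had enough reads in EM-females for the filter of this comparison. The others, *eps8l1b* and *eps8l3a* included, entered it through testis, where they were high, so their direction was fixed by the filter. The largest were *eps8l3b* (8.98, SE 1.04), *eps8l1a* (8.05), *eps8l3a* (7.38, SE 0.95) and *vil1* (6.66, SE 1.47). *vil1* too passed the filter only through testis. Of 13 genes of the Rac and Arf6 switch 5 were higher and 8 lower. *rac1a*, which encodes a Rac, was among those lower in males, at −2.20 (SE 0.17, adjusted p = 2.17e-07, edgeR).

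Between control males and control females 22 of 68 genes of the lists were higher and 12 lower in males, again near the shares over all genes tested (29.5% higher and 16.5% lower). Next to *eps8l1a*, *abi3a* of the Abi adaptors had 50.8 and 46.4 normalized counts in control males and 0 in both control females (adjusted p = 0.0132, edgeR). Its mean in control males was at least 19.7-fold higher against the floor. *eps8l3b* had a log2 fold change of 7.74 (SE 0.91, adjusted p = 0.00706, edgeR). *wasf3a*, a subunit of the WAVE complex, had 377 reads in control males and 2 in control females, a ratio of 252 (95% exact interval 69.4 to 2091, counting error only). With 0 and 2 reads in the control females, *abi3a* and *wasf3a* passed the filter only through testis. So did *eps8l3b*, of which the single control females had 14 and 4 reads. The direction of these genes was fixed by that filter. Between the control fish 6 of 7 tested leukocyte and 8 of 10 gut markers were also called higher in males, against the 29.5% above. Between EM-males and EM-females 7 of 7 and 6 of 6 were called higher, against 40.9% over all genes tested. Of 17 epithelium markers 11 were called higher and 2 lower in EM-males than in EM-females. Within ovary 4 leukocyte and 6 gut markers passed the filter between EM-females and control females, so some were tested here through testis alone. The part of these cell types in the sex difference of the lists was not tested.

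**Figure D4:**
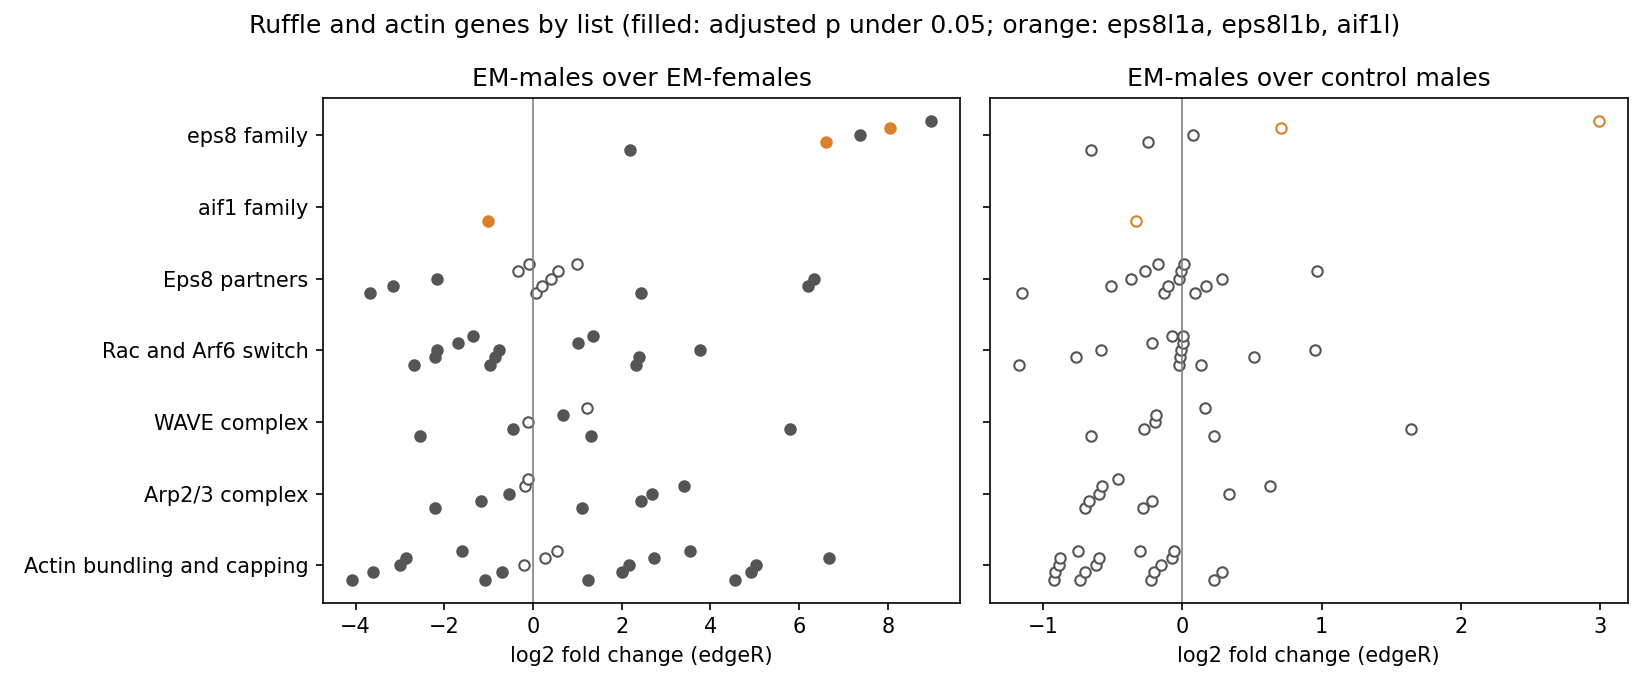
Log2 fold change from edgeR of each tested gene in 7 lists of ruffle and actin genes, for EM-males over EM-females (left) and EM-males over control males (right), with filled points where the adjusted p was under 0.05 and orange points for *eps8l1a*, *eps8l1b* and *aif1l*. On the left 53 of 67 points are filled and all 5 *eps8* genes lie above 2, and on the right 0 of 66 are filled and *eps8l1b* at 2.99 lies farthest from 0.

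The genes whose levels were most like those of the 3 genes were sought among genes with a symbol and a mean of at least 50 normalized counts. Over the 8 testis libraries and 12611 genes, *eps8l1a* was most like si:ch211-10j20.7 (Pearson's r = 0.992, Spearman's rho = 0.929), *tnfsf13b*, a cytokine that acts on B cells in mammals (r = 0.973, rho = 0.857), and *inppl1b*, a phosphoinositide phosphatase (r = 0.972, rho = 0.881). Without the 2 libraries farthest from the median of *eps8l1a*, r was 0.956, 0.856 and 0.840 for these genes. The *eps8l1b* pattern was most like si:dkey-31m5.2 (r = 0.973, rho = 0.976), si:dkey-31b10.2 (r = 0.952, rho = 0.833) and si:ch211-202n12.5 (r = 0.952, rho = 0.976). The 2 control males were the libraries farthest from its median, and without them r was 0.937, 0.782 and 0.801. The 8 libraries share the gut RNA and the depth differences given above, and no p is given, since these genes were picked as the most alike.

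For *aif1l* the most alike genes in testis were *ptprn* (r = 0.950, rho = 0.881), *abcc6a* (r = 0.935, rho = 0.952) and *brpf3* (r = 0.924, rho = 0.905). In ovary, over 9827 genes, they were si:dkey-241f8.1 (r = 0.971, rho = 0.952), *nlk1* (r = 0.957, rho = 0.976) and *adnp2* (r = 0.956, rho = 0.976). Without the 2 farthest libraries r was 0.838, 0.842 and 0.832 in testis and 0.937, 0.967 and 0.937 in ovary. The genes found for *aif1l* in testis and in ovary had none in common. The *eps8* genes were too low in ovary for this search.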

How the data were processed

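Gonad poly(A) RNA of 16 fish was sequenced with stranded libraries. Per the submitters' processing notes and the methods, the authors used FastQC 0.11.8, MultiQC 0.9, HISAT2 2.0.5, SAMtools 1.5 and HTSeq 0.9.1 with GRCz11 and Ensembl release 95, removing duplicates and counting on the reverse strand. The authors deposited raw read counts for 32520 genes (5 HTSeq tallies were left out, and 1 cell held 2 values). They also deposited normalized signal for 28353 genes, the counts divided by DESeq2 size factors, which differed from the recomputed values by at most 5.57e-08%. Reads tallied as not unique made up 24.8% to 36.7% of a library and are not in the counts, which could lower genes with a close copy. Whether *eps8l1a* and *eps8l1b* lost reads in this way was not tested. Removing duplicates could lower highly expressed genes.

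Counts were fitted in R 4.3.3 with edgeR 4.0.16 (TMM, filterByExpr, robust quasi-likelihood fit, two-sided), each comparison on its own libraries, with Benjamini-Hochberg adjustment over all genes tested and a threshold of 0.05. EM-males against EM-females had the concentration as a factor. The quasi-likelihood test gives no standard error, so each SE was derived as the absolute log2 value over the square root of its F statistic. Slopes were per doubling of EM in exposed fish, and the interaction used all 16 libraries. Alternatives were DESeq2 1.42.0, its size factors within edgeR, keeping every gene with at least 1 count, 1 model for the 16 libraries, a replicate block, single concentrations and leaving out each fish. The alternatives on gut RNA and on log2 values in the permutation test were chosen after seeing the data. Exact permutation tests used all 28 splits of 6 and 2 fish and the absolute difference of means, in Python 3.11.15 with NumPy 2.4.6. Exact intervals came from SciPy 1.17.1 and cover counting error only. Scripts were tested on simulated data.

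Members and gene lists were chosen with earlier results of these data known. Symbols came from the reference table and the study's tables, matched without regard to case, and 29201 of 32520 genes had one. The text names the 3 genes, each *eps8* and *aif1* family gene with an identifier, up to 4 called list genes with the largest change per comparison, and the 3 most alike genes by Pearson's r of log2(normalized count + 1). *rac1a*, *arpc3*, *insl3*, *fabp6* and *lyz* were named after their values were seen. Coordinates and sequences were not used here.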

Additional observations from a re-analysis of the deposited data

Results flagged for a closer look

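Of 12 groups of 6 fish (6 *eps8* or *aif1l* genes in each sex), 3 had a fish far from the others. The rule compared the gap to the next fish with the range, on normalized counts and not on log2 values. Chance gives about 1 in 20 groups only for independent groups of normally distributed values. These groups share the same fish, and the counts are skewed, so no excess over chance can be read from the 3 flags. *eps8l3a* was 5110 normalized counts in EM-male replicate 2 at 200 μg/L, and the next highest EM-male had 1577. *eps8l3b* was 4213 in the same fish, with 1488 in the next. This fish had the largest gut marker sum of the EM-males, and its flags for *eps8l3a* and *eps8l3b* are not independent. In EM-females *eps8l3b* was 4.74 in replicate 1 at 200 μg/L, with 1.80 in the next, which is 6 reads in the highest fish. None of the 3 genes *eps8l1a*, *eps8l1b* and *aif1l* was among these.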

How the results depend on the processing

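Over 273 alternatives for the 3 genes, 266 kept their direction and side of the threshold. The exceptions were *eps8l1b* in EM-males with DESeq2 (2.98), *aif1l* between control males and control females, and 4 sign changes with a fish left out. For *aif1l* they were the model of all libraries (−1.10) and the fit without control male replicate 2. With each fish left out in turn, this value of *aif1l* ran from −1.12 to −0.82. Leaving out fish gave −0.16 to 1.24 for the interaction of *eps8l1b*, −0.15 to 0.26 for the slope of *aif1l* in EM-males and −0.045 to 0.12 for that in EM-females. None of these values had passed the test. The exact permutation p of *eps8l1b* was 0.0357 on log2 values in males and in females. Counts of genes called between EM-males and control males were 126 with DESeq2, 0 to 7 with a fish left out (7 without control male replicate 2), and 0 in the model of all libraries, at single concentrations and in both alternatives on gut RNA. Between EM-females and control females they were 391 with DESeq2, 7 with no filter, 1 in the model of all libraries, 0 at single concentrations and 0 to 20 with a fish left out. Between control males and control females they were 4895 to 7536 with a fish left out. For the interaction they were 111 with DESeq2 and 0 to 5 with a fish left out, and for the slopes 67 in males and 109 in females with DESeq2. The cause of these shifts was not tested.

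Replicate numbers did not pair the fish. The check used the difference between the replicates of each group, taken in the same order, gene by gene over 18261 genes. In males these differences correlated at 0.159 to 0.327 between EM groups and at −0.308 to −0.209 between EM groups and controls. In females they correlated at −0.0206 to 0.0126 between groups. With the replicate number as a block, the log2 fold change in EM-males was 3.07 for *eps8l1b*, 0.81 for *eps8l1a* and −0.34 for *aif1l*, and 0 genes were called. The block changed no call of the 3 genes. In ovary a count of 0 to 16 reads limits both *eps8* genes, and *eps8l1a* could not be fitted there after filtering.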
